A study of Mus musculus with 12 samples.

Results

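The circadian clock genes described here are the activators Arntl (also called Bmal1), Clock and Npas2, the repressors Per1, Per2, Per3 and Cry1, the nuclear receptors Nr1d1 and Nr1d2, and the output factor Dbp. They were chosen by name as core clock and output genes, and all 10 were found among the 18647 genes tested, so none was lost to the filter on low counts. Their RNA was measured in mammary glands of female C57BL/6 mice at postnatal day 84, 4 weeks after folic acid supplementation in juvenile and peri-pubertal life. The groups were 6 libraries at 5 mg/kg folic acid and 6 libraries at 1 mg/kg. Both groups received folic acid, and no group without it is part of the comparison. The sample was the whole right thoracic fat pad, which can hold fat, epithelium, vessels, lymph node tissue and muscle in amounts that vary between pads. The labels give neither the hour at which tissue was taken nor a batch. Nothing in them says whether each library is a separate animal, so a p here reflects the spread between libraries, which may be technical in part.

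The circadian clock is a transcriptional feedback loop that runs in nearly every cell. ARNTL pairs with CLOCK or its relative NPAS2 and activates genes that carry E-boxes, among them the Per, Cry, Nr1d and Dbp genes. The PER and CRY proteins then block the activators. The proteins of Nr1d1 and Nr1d2, REV-ERB alpha and REV-ERB beta, repress Arntl through ROR elements. Arntl RNA and the RNAs of Nr1d1 and Dbp are known to peak at nearly opposite times of day in mouse tissues. DBP is a transcription factor that carries the rhythm to other genes through D-boxes. Mammary tissue is known to have its own clock. Per1 is also known as a gene induced directly by glucocorticoids.

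Libraries held 48.2 to 75.3 M reads assigned to genes (M, mega). Mitochondrial rRNA (mt-Rnr1 with mt-Rnr2) took 39.2% to 59.5% of these reads in the 12 libraries. Levels are given as CPM, read counts scaled to a common library total with TMM factors, which set most genes to be equal between libraries. Luminal epithelium markers were present in every library, with summed levels of 287 to 813 CPM at 5 mg/kg, against 167 to 1198 CPM at 1 mg/kg. Skeletal muscle markers summed to 15144 to 45689 CPM at 5 mg/kg, against 15755 to 72690 CPM at 1 mg/kg. Libraries varied widely in B cell level, the mean log2 CPM of 8 B cell markers, and were divided by rank. The 6 libraries highest in it, called B-high here, replicates 1, 2 and 3 at 5 mg/kg and replicates 1, 5 and 6 at 1 mg/kg, lay between 5.08 and 6.36. Of the other 6, replicate 3 at 1 mg/kg was at 3.37, nearer to the B-high libraries than to the remaining 5, which lay between -1.41 and -0.052. Each set therefore held 3 libraries of each group, and these sets are used below beside the folic acid groups.

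Promoter sequences are shown for the 4 clock genes with a window that held a motif through which the loop is known to act, because these letters are what the clock factors are known to bind. RefSeq windows of 300 bases (GRCm38.p6), from 250 bases before to 50 after a start site, were searched on both strands. Of 32851 windows, 13 belonged to 9 of the clock genes. Per2 had no window and was not searched. Each line is read 5′ to 3′ on the gene's strand, and capitals mark the motif.
Arntl ROR element, chr7:113207261-113207560, plus strand: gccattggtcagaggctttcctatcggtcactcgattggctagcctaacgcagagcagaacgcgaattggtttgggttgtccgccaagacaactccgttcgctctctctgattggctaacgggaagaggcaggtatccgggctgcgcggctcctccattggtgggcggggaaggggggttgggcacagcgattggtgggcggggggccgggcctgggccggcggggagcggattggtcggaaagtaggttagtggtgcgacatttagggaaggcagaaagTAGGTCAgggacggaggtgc
Per1 E-box, chr11:69098699-69098998, plus strand: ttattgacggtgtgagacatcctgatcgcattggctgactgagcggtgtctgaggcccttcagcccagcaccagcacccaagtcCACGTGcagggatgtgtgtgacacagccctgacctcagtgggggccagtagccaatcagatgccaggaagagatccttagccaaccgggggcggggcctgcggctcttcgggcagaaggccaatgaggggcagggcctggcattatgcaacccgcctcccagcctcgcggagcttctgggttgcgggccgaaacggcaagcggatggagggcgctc
Per3 D-box, chr4:151044616-151044915, minus strand: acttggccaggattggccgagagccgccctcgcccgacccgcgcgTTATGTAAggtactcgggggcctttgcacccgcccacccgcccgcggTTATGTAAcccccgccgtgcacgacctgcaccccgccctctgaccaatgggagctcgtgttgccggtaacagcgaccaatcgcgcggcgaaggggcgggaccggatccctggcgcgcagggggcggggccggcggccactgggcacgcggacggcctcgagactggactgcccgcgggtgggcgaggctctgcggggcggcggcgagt
Cry1 E-box, chr10:85185005-85185304, minus strand: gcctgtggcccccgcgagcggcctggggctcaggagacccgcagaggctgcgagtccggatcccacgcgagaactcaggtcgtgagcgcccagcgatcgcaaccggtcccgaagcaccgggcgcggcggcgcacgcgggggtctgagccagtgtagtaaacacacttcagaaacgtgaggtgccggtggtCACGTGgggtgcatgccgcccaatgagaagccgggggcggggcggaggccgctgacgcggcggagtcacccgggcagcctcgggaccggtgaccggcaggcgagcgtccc

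The E-box CACGTG stood in 1 of the 2 Per1 windows and in the Cry1 window, 166 and 60 bases before the start, and in 7.15% of all windows. The start of that Per1 window lies inside the gene, whose first base is at 69095217. The D-box TTATGTAA, bound by DBP and its relatives, stood in the Per3 window at 2 places, the first 205 bases before the start, and in 0.938% of all windows. The ROR element TAGGTCA, the kind of site that REV-ERB and ROR receptors share, began 30 bases after the start in 1 of the 2 Arntl windows and stood in 2.61% of all windows. The D-box TTACGTAA (0.119% of all windows), the ROR element TGGGTCA (3.98%) and the cAMP response element TGACGTCA (1.79%) were in none of the 13 clock gene windows. A match is a description of these letters and was not tested as a binding site.

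Per kilobase of exon, the REV-ERB genes and Dbp had the highest RNA levels of the clock genes and the activators Arntl and Npas2 the lowest. Mean levels over the 12 libraries were 24.6 ± 9.45 CPM per kb (SD) for Nr1d1, 18.1 ± 3.80 for Nr1d2 and 14.8 ± 4.59 for Dbp. Then came Per1 at 5.23 ± 1.71 CPM per kb, Clock at 5.04 ± 0.756, Per3 at 3.35 ± 0.981 and Per2 at 2.41 ± 0.634. Cry1 at 1.41 ± 0.378 CPM per kb, Arntl at 1.07 ± 0.362 and Npas2 at 0.227 ± 0.0878 closed the order. Neighbours in this order overlapped in their ranges over libraries, except that every library had more Arntl, from 0.502 CPM per kb, than the highest Npas2 value, 0.396. Npas2 rested on 30 to 113 reads per library.

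No clock gene differed between 5 mg/kg and 1 mg/kg past the threshold. By edgeR's quasi-likelihood test with Benjamini-Hochberg adjustment over all genes, 0 of the 10 passed, and their adjusted p lay between 0.943 and 0.962. The share of all 18647 genes that passed was 0%, so the count of the clock genes equals the background. DESeq2 and limma-voom also called 0 genes. At an unadjusted p under 0.05 there were 0 of 10 clock genes, against 359 of all genes, or 1.93%. This count of the clock genes was not 0 in 7 alternatives, in each of which no clock gene passed adjustment. Cry1, Nr1d1 and Dbp were under 0.05 without replicate 4 at 1 mg/kg (edgeR unadjusted p of 0.0456, 0.0115 and 0.0132), against 7.63% of all genes, and with the B cell level as covariate (0.0154, 0.00666 and 0.0437), against 4.63%. Cry1 and Dbp were under it without replicate 2 at 5 mg/kg (edgeR unadjusted p of 0.0489 and 0.0434), against 2.09% of all genes. Dbp was under it by limma-voom, against 1.93% of all genes, and with no filter on low counts, against 3.48%. By limma-voom with quality weights Dbp and Nr1d1 were under it, against 4.66% of all genes. With the adipocyte level as covariate Clock was under it, against 4.22%. The count over all genes was 200 without replicate 4 and 211 without replicate 5 at 5 mg/kg, and 802 without replicate 6. At 1 mg/kg it was 205 without replicate 1, 206 without replicate 6 and 1445 without replicate 4. At 5 mg/kg, 5 clock genes were higher and 5 were lower, and their median log2 fold change was 0.013, against -0.018 over all tested genes, of which 47.2% were higher. In 0 of 10 clock genes did the groups separate without overlap, against 0.0429% of all genes. Brown fat markers stood higher at 5 mg/kg in 7 of 8 genes, with a median log2 fold change of 1.77, 4 with an unadjusted p under 0.05 and 0 past adjustment. They summed to 18.9 to 1301 CPM at 5 mg/kg, against 41.3 to 696 CPM at 1 mg/kg. All 6 fibroblast markers were higher at 5 mg/kg, with a median log2 fold change of 0.41 and 0 under an unadjusted p of 0.05, and summed to 1833 to 3674 CPM at 5 mg/kg, against 1009 to 2733 CPM at 1 mg/kg. With the brown fat level as covariate, 0 of 10 clock genes had an unadjusted p under 0.05, and a fit with the fibroblast level was not run.

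Arntl (ENSMUSG00000055116, GRCm38 chr7:113207465-113314126, plus strand), the activator on which the loop depends, ranged at 5 mg/kg over 4.09, 8.16 and 9.08 CPM (lowest, median, highest of 6). At 1 mg/kg the same values were 3.78, 8.94 and 13.4 CPM. The highest level was in replicate 1 and the lowest in replicate 4, both at 1 mg/kg, so that the 1 mg/kg range enclosed the whole of the 5 mg/kg range. Arntl averaged 7.19 ± 2.11 CPM at 5 mg/kg, against 8.88 ± 3.19 CPM at 1 mg/kg (SD, n = 6 each), and the log2 fold change was -0.30 ± 0.28 (SE, 95% interval -0.91 to 0.30, edgeR unadjusted p = 0.297). Its sign turned, to 0.14, when the adipocyte level entered the fit. Without replicate 1 at 1 mg/kg it was -0.15 and without replicate 4 at 1 mg/kg -0.46, and it was -0.20 and -0.18 without replicates 4 and 6 at 5 mg/kg.

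Clock (ENSMUSG00000029238, chr5:76209868-76304792, minus strand), the usual partner of ARNTL, varied least of the 10 genes, with a highest library 1.52 times the lowest. It had 57.1, 66.6 and 81.7 CPM (lowest, median, highest) at 5 mg/kg and 55.3, 72.3 and 84.0 CPM at 1 mg/kg. The groups overlapped nearly fully, with a log2 fold change of -0.05 ± 0.14 (SE, 95% interval -0.34 to 0.25, edgeR unadjusted p = 0.736). Npas2 (ENSMUSG00000026077, chr1:39193731-39363236, plus strand), which can take the place of CLOCK, had 0.679, 1.10 and 1.36 CPM at 5 mg/kg, against 0.418, 1.19 and 1.90 CPM at 1 mg/kg. Its lowest and highest libraries were both at 1 mg/kg, 4.54 times apart, and its log2 fold change was -0.10 ± 0.35 (edgeR unadjusted p = 0.777). The sign for Clock turned, to 0.012, without replicate 2 or 4 at 1 mg/kg, and that for Npas2, to 0.14, without replicate 2 at 1 mg/kg.

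Per1 (ENSMUSG00000020893, chr11:69095217-69109960, plus strand), a repressor that also answers to hormones, had 18.3, 28.9 and 44.2 CPM (lowest, median, highest) at 5 mg/kg and 14.3, 32.1 and 39.3 CPM at 1 mg/kg. The groups overlapped over most of their range, and the log2 fold change of 0.10 ± 0.28 (SE, edgeR unadjusted p = 0.723) turned sign without single libraries. It was -0.035 without replicate 6 at 5 mg/kg, and -0.036 or -0.0079 without replicate 1 or 4 at 1 mg/kg. Per2 (ENSMUSG00000055866, chr1:91415982-91459324, minus strand), a repressor whose loss disturbs behavioural rhythm in mice, had 9.61, 12.7 and 18.5 CPM at 5 mg/kg, against 8.20, 14.9 and 20.3 CPM at 1 mg/kg. Its log2 fold change was -0.18 ± 0.22 (edgeR unadjusted p = 0.437), with both ends of its range at 1 mg/kg, and lay between -0.30 without replicate 1 at 1 mg/kg and -0.067 without replicate 6 at 1 mg/kg. Per3 (ENSMUSG00000028957, chr4:151003652-151044665, minus strand), whose loss is milder in mice and whose window held the D-boxes shown above, had 24.0, 33.8 and 51.1 CPM at 5 mg/kg, against 16.3, 29.0 and 41.9 CPM at 1 mg/kg. Its log2 fold change was 0.28 ± 0.23 (95% interval -0.21 to 0.78, edgeR unadjusted p = 0.237), and only the highest 5 mg/kg library and the lowest 1 mg/kg library lay outside the shared range. It was 0.15 without replicate 6 at 5 mg/kg, 0.16 without replicate 1 at 1 mg/kg and 0.098 with the adipocyte level in the fit.

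Cry1 (ENSMUSG00000020038, chr10:85131700-85185064, minus strand), the cryptochrome that blocks CLOCK and ARNTL on DNA, had 2.63, 4.34 and 5.30 CPM (lowest, median, highest) at 5 mg/kg and 3.81, 5.43 and 6.86 CPM at 1 mg/kg. It averaged 4.09 ± 0.990 CPM at 5 mg/kg, against 5.32 ± 1.28 CPM at 1 mg/kg (SD, n = 6 each). Its log2 fold change of -0.38 ± 0.20 (SE, 95% interval -0.82 to 0.07, edgeR unadjusted p = 0.0885) was the lowest of the 10 genes. The groups overlapped between 3.81 and 5.30 CPM. The log2 fold change kept this sign in every alternative run, between -0.56 and -0.10.

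Nr1d1 (ENSMUSG00000020889, chr11:98767932-98775333, minus strand), which encodes REV-ERB alpha, had 55.6, 84.7 and 122 CPM (lowest, median, highest) at 5 mg/kg and 39.4, 55.1 and 112 CPM at 1 mg/kg. The 3 lowest libraries were all at 1 mg/kg, but replicate 4 of that group, at 112 CPM, lay above 4 of the 6 libraries at 5 mg/kg. Nr1d1 averaged 88.6 ± 26.3 CPM at 5 mg/kg, against 63.1 ± 27.8 CPM at 1 mg/kg (SD, n = 6 each), and the log2 fold change was 0.49 ± 0.28 (SE, 95% interval -0.12 to 1.10, edgeR unadjusted p = 0.106), which was 0.09 with the adipocyte level in the fit. Its exons share 263 bases, 8.55% of their length, with Thra on the other strand. The strand setting of the counting is not given, so whether reads from these bases were counted for either gene is not known. Thra, a thyroid hormone receptor gene, ran from 20.4 to 48.5 CPM over the 12 libraries and had an r of 0.96 with Nr1d1. The part of the shared bases in that r was not tested. Nr1d2 (ENSMUSG00000021775, chr14:18204054-18239127, minus strand), which encodes REV-ERB beta, had 79.6, 96.5 and 125 CPM at 5 mg/kg, against 63.8, 100.03 and 122 CPM at 1 mg/kg. Its log2 fold change was 0.07 ± 0.18 (edgeR unadjusted p = 0.699), and it turned to -0.054 when libraries were scaled by their size alone and to -0.020 without replicate 1 at 1 mg/kg.

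Dbp (ENSMUSG00000059824, chr7:45705088-45710203, plus strand), the output factor, had 37.4, 47.1 and 67.7 CPM (lowest, median, highest) at 5 mg/kg and 19.0, 36.9 and 57.0 CPM at 1 mg/kg. The 3 lowest libraries were at 1 mg/kg and the 2 highest at 5 mg/kg, with overlap between 37.4 and 57.0 CPM. Dbp averaged 51.3 ± 11.3 CPM at 5 mg/kg, against 37.1 ± 12.9 CPM at 1 mg/kg (SD, n = 6 each), and the log2 fold change was 0.47 ± 0.23 (SE, 95% interval -0.04 to 0.97). Its edgeR unadjusted p of 0.0666 was the smallest of the 10 genes, and with the adipocyte level in the fit the log2 fold change was 0.20 (edgeR unadjusted p = 0.333). Dbp shares 539 exon bases, 18.0% of its length, with Sphk2 on the other strand, and Sphk2 stayed between 9.37 and 13.1 CPM, with an r of -0.23 with Dbp over the libraries.

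**Figure D1:**
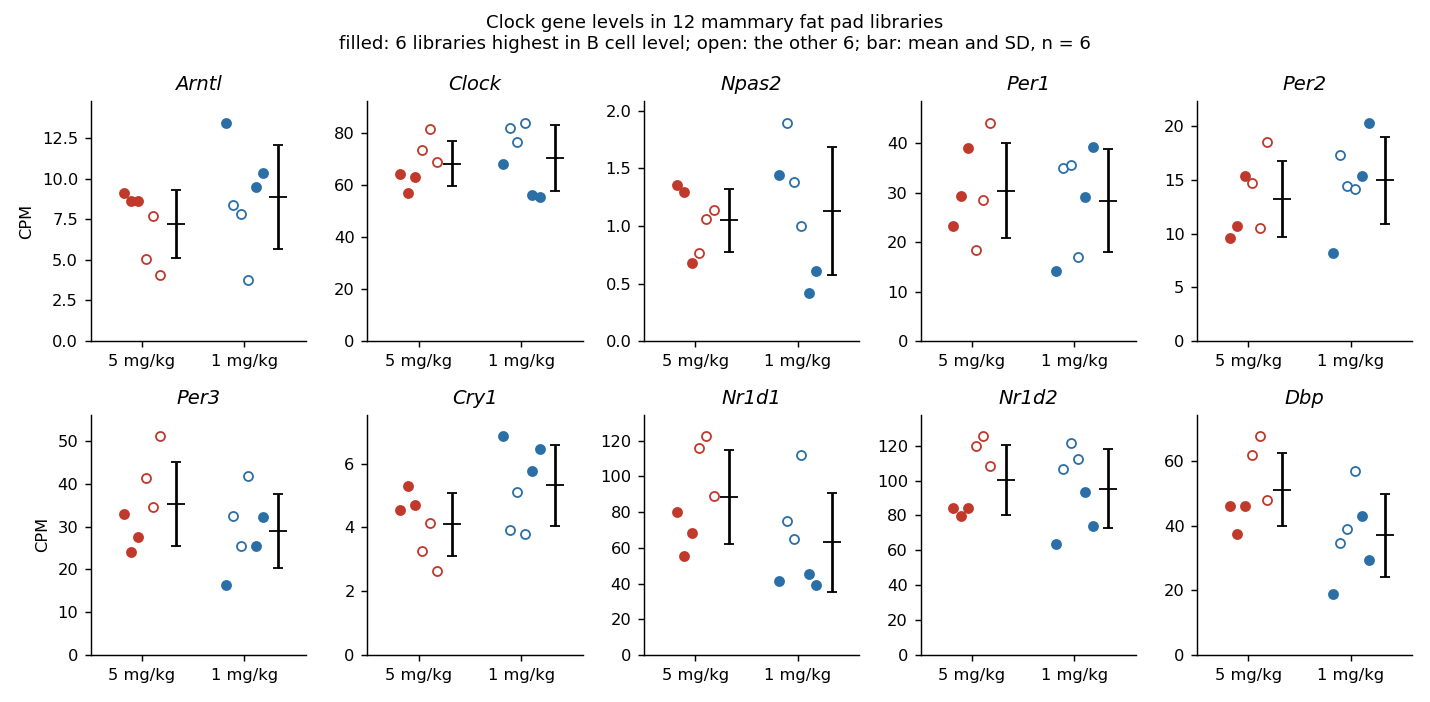
Level of each clock gene in CPM (vertical axes, from 0) in every library, with 5 mg/kg (red) left of 1 mg/kg (blue). Filled points are the 6 libraries highest in B cell level, open points the other 6, and bars give the mean and SD (n = 6). The groups overlap in all 10 panels, and in the Arntl, Clock and Nr1d2 panels filled and open points do not overlap.

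The spread over libraries was close to that of other genes. The median SD of log2 CPM was 0.47 for the clock genes and 0.42 for all tested genes. The highest library had 3.56 times the level of the lowest for Arntl and for Dbp, 3.10 times for Nr1d1 and for Per1, 3.14 times for Per3, 2.61 times for Cry1, 2.48 times for Per2 and 1.96 times for Nr1d2.

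No other gene of the clock passed the test between the folic acid groups. Of 24 such genes, all tested, 15 had a positive and 9 a negative log2 fold change, 0 passed the adjusted threshold, 0 had an unadjusted p under 0.05, and the median log2 fold change was 0.026. Ciart, a repressor of CLOCK and ARNTL with strongly rhythmic RNA, had the largest value, 0.60 ± 0.31 (SE, edgeR unadjusted p = 0.0783), with 2.68 ± 0.900 CPM at 5 mg/kg, against 1.77 ± 0.759 CPM at 1 mg/kg (SD, n = 6 each). Among the factors that act on D-boxes with DBP, Tef was at 0.21 ± 0.19 and Hlf at 0.18 ± 0.21 on the log2 scale, and the D-box repressor Nfil3 was at -0.20 ± 0.26. Cry2, the second cryptochrome, was at 0.16 ± 0.18. Log2 fold changes were 0.07 ± 0.23 for Bhlhe41, an E-box repressor, and 0.03 ± 0.34 for Usp2, a rhythmic deubiquitinase.

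**Figure D2:**
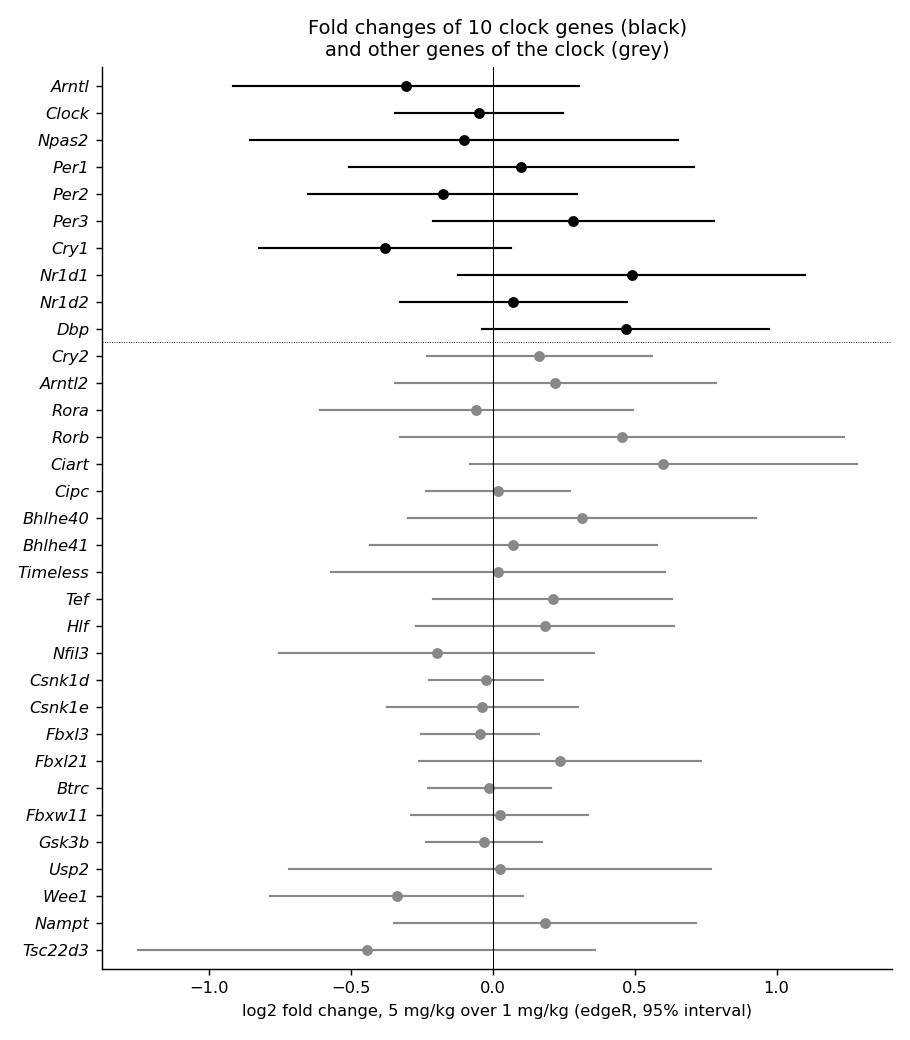
Log2 fold change, 5 mg/kg over 1 mg/kg, from edgeR (horizontal axis) with 95% intervals, for the 10 clock genes (black, above) and other genes of the clock (grey, below). Every interval shown includes 0, with the largest values for Ciart at 0.60 and Nr1d1 at 0.49.

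Genes of the glucocorticoid, immediate early and temperature lists were read beside the clock genes, since hormones, serum and temperature are known to reset the clock of cultured cells. Tsc22d3, a glucocorticoid target also called Gilz, was at -0.44 ± 0.37 (log2 fold change ± SE) and Fkbp5, another such target, at -0.30 ± 0.29. The immediate early gene Fos was at -0.13 ± 0.22 and the cold-inducible RNA-binding protein gene Cirbp at 0.22 ± 0.14. Hsph1, a heat shock protein gene, was the only one of these lists with an unadjusted p under 0.05, at -0.60 ± 0.19 (edgeR unadjusted p = 0.00821, adjusted p = 0.943).

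Many of the clock genes varied together over libraries. Arntl and Cry1 were high in the same libraries, and Nr1d1, Nr1d2, Dbp and Per3 were high where Arntl and Cry1 were low. Correlations of log2 CPM were computed for all 45 pairs over the 12 libraries, with permutation tests (100000 resamples, two-sided) and Benjamini-Hochberg adjustment over the 45. An adjusted p under 0.05 was reached by 16 pairs, 8 positive and 8 negative. No share of all gene pairs was computed for this p, so these 16 cannot be set against a background. In 5 pairs, 11.1%, Pearson's r was 0.8 or more in size, against 8.93% of all 173845981 pairs of tested genes. The number of strongly correlated pairs was therefore near the background of these libraries. Without replicate 3 at 1 mg/kg it was 8, and with the adipocyte level removed from each gene it was 0. The share of all gene pairs was not computed in these settings.

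Arntl and Cry1 had an r of 0.86 (permutation p = 0.00022, adjusted p = 0.0036) and a rho of 0.88 (permutation p = 0.00038, adjusted p = 0.00427), and r was 0.88 without the 2 libraries farthest from the median of Arntl. For Arntl and Per3, r was -0.84 (permutation p = 0.00048, adjusted p = 0.0054) and rho was -0.77 (permutation p = 0.00499, adjusted p = 0.0249), with -0.77 without the 2 farthest libraries. Under scaling by library size alone this r was -0.18 (permutation p = 0.568). For Arntl and Nr1d1, r was -0.76 (permutation p = 0.00424, adjusted p = 0.0238) and rho -0.83 (permutation p = 0.00179, adjusted p = 0.0134), with -0.79 without the 2 farthest libraries. The signs of Arntl against Per3 and Nr1d1 were the same in both folic acid groups, with r of -0.89 at 5 mg/kg and -0.80 at 1 mg/kg for Per3, and -0.47 at 5 mg/kg and -0.92 at 1 mg/kg for Nr1d1.

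Arntl and Dbp, the activator and the output, had an r of -0.70 (permutation p = 0.0114, adjusted p = 0.0359) and a rho of -0.73 (permutation p = 0.00822, adjusted p = 0.0265), and r was -0.81 without the 2 farthest libraries. Replicate 1 at 1 mg/kg had the highest Arntl, 13.4 CPM, and the lowest Dbp, 19.0 CPM. Replicate 4 at 1 mg/kg stood at the other end, with the lowest Arntl, 3.78 CPM, and a Dbp of 57.0 CPM. Within 5 mg/kg r was -0.32 (exact permutation p = 0.519) and within 1 mg/kg -0.87 (exact permutation p = 0.0389, n = 6 each). The relation no longer passed at 0.05 without replicate 1 at 1 mg/kg (r of -0.58, permutation p = 0.0614) or under scaling by library size alone (r of -0.50, permutation p = 0.101).

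The remaining strong pairs joined the same genes, and Nr1d2 and Dbp, with an r below 0.8, are given after them. Cry1 ran against Per3 (r of -0.86, permutation p = 0.00024, adjusted p = 0.0036; rho of -0.90, permutation p = 0.00017, adjusted p = 0.00382) and against Nr1d1 (r of -0.83, permutation p = 0.00086, adjusted p = 0.00774; rho of -0.89, permutation p = 0.00028, adjusted p = 0.0042). Without the 2 libraries farthest on the first gene these r were -0.72 and -0.92. Nr1d1 and Dbp were high in the same libraries (r of 0.85, permutation p = 0.00019, adjusted p = 0.0036; rho of 0.90, permutation p = 0.00017, adjusted p = 0.00382), with 0.80 without the 2 farthest libraries, 0.97 within 5 mg/kg and 0.73 within 1 mg/kg. Nr1d2 and Dbp had an r of 0.78 (permutation p = 0.00212, adjusted p = 0.0159; rho of 0.73, permutation p = 0.0086, adjusted p = 0.0265), which was 0.50 without the 2 farthest libraries.

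Per1, Per2 and Npas2 stood outside this pattern. Arntl had an r of 0.01 with Npas2, 0.01 with Per1 and -0.38 with Per2. Per1 and Per2 had an r of 0.65 (permutation p = 0.0221, adjusted p = 0.0563) and a rho of 0.78 (permutation p = 0.00367, adjusted p = 0.0206), so that the rank correlation passed the adjusted threshold and Pearson's r did not. Without the 2 farthest libraries r was 0.58. Both genes were lowest in replicate 1 at 1 mg/kg, at 14.3 CPM for Per1 and 8.20 CPM for Per2, and without it r was 0.48 (permutation p = 0.136). Without replicate 6 at 5 mg/kg r was 0.59 (permutation p = 0.0547). Clock had an r of -0.49 with Arntl, whose protein is its partner. With Nr1d1 its r was 0.73 (permutation p = 0.008, adjusted p = 0.0359) and its rho 0.71 (permutation p = 0.0125, adjusted p = 0.0332), and r was 0.35 among the B-high libraries and 0.15 among the other 6.

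**Figure D3:**
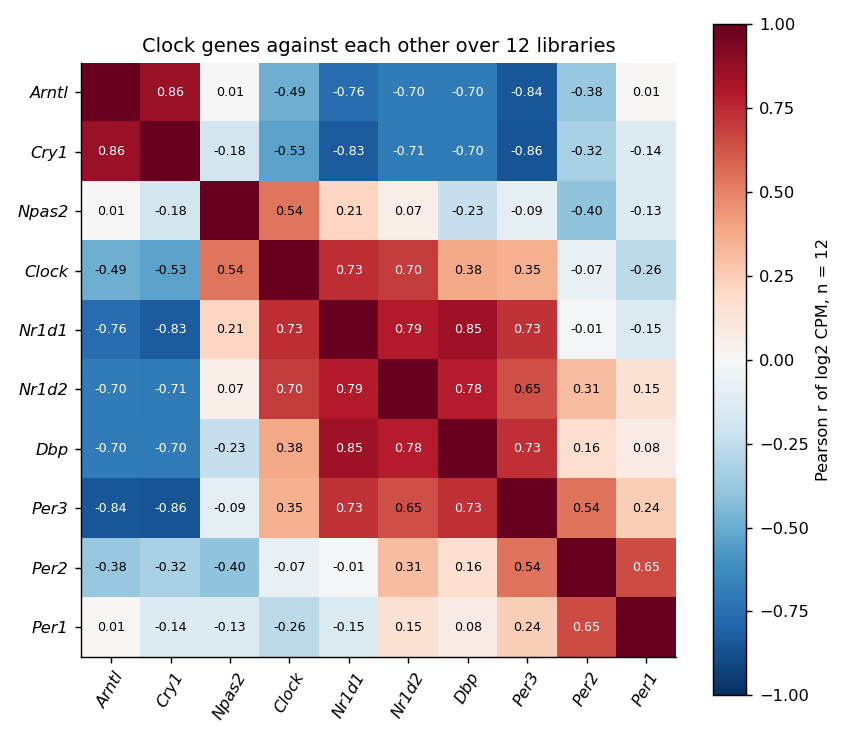
Pearson's r of log2 CPM between each pair of clock genes over the 12 libraries, from -1 (blue) to 1 (red), with genes on both axes ordered by role and likeness. Arntl and Cry1 form a positive pair (0.86), and both are negative with Nr1d1, Nr1d2, Dbp and Per3 (from -0.86 to -0.70).

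The log2 ratio of Dbp to Arntl places each library along this axis. It was 2.86 ± 0.65 at 5 mg/kg (from 2.12 to 3.62) and 2.08 ± 1.12 at 1 mg/kg (from 0.50 to 3.90; SD, n = 6 each). The 1 mg/kg libraries held both ends, replicate 1 at 0.50 and replicate 4 at 3.90, and the 5 mg/kg libraries lay between them. The difference of the group means, 0.79, was below the SD of the 1 mg/kg libraries (1.12) and above that of the 5 mg/kg libraries (0.65). This difference was not tested. Without single libraries it lay between 0.47 (without replicate 1 at 1 mg/kg) and 1.15 (without replicate 4 at 1 mg/kg).

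**Figure D4:**
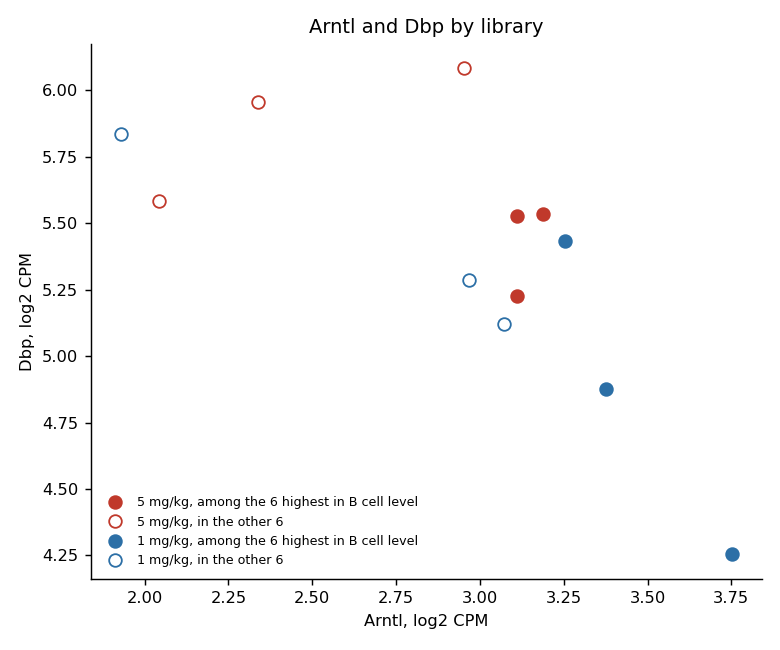
Dbp (vertical axis) against Arntl (horizontal axis), both in log2 CPM, with 1 point per library, red for 5 mg/kg and blue for 1 mg/kg, filled for the 6 libraries highest in B cell level. Dbp is lower where Arntl is higher (r of -0.70), and the library at the lower right is replicate 1 at 1 mg/kg.

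Arntl was higher, and Clock and Nr1d2 were lower, in every B-high library than in every one of the other 6, and 7 clock genes overlapped between these sets. Summed over the 8 B cell markers, all of them detected in every library, levels ran from 4.03 to 555 CPM at 5 mg/kg, while the 1 mg/kg libraries spanned 3.07 to 745 CPM. In bulk tissue, fewer cells of a type and less RNA per cell cannot be told apart. Arntl lay between 8.60 and 13.4 CPM in the 6 B-high libraries and between 3.78 and 8.38 CPM in the other 6. Clock went the other way, with 55.3 to 68.0 CPM in the 6 highest and 68.7 to 84.0 CPM in the other 6. Nr1d2 had 63.8 to 93.7 CPM in the 6 highest and 106 to 125 CPM in the other 6. These 3 of the 10 clock genes did not overlap between the sets, against 20.3% of all tested genes, so the share among the clock genes was near the background. Which genes separated depended on replicate 3 at 1 mg/kg. With it counted among the highest, 7 libraries against 5, these 3 genes overlapped and only Cry1 did not, 1 of 10 against 13.5% of all tested genes. Nr1d1 averaged 55.1 ± 16.3 CPM in the 6 highest and 96.6 ± 23.7 CPM in the other 6, and Cry1 averaged 5.60 ± 0.935 CPM in the 6 highest and 3.81 ± 0.839 CPM in the other 6 (SD, n = 6 each), with overlap. Per1 averaged 29.1 ± 9.55 CPM in the 6 highest and 29.8 ± 10.6 CPM in the other 6. Per2 averaged 13.3 ± 4.57 CPM in the 6 highest and 14.9 ± 2.80 CPM in the other 6, and Npas2 0.968 ± 0.447 CPM in the 6 highest and 1.21 ± 0.393 CPM in the other 6.

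The log2 ratio of Dbp to Arntl was 1.84 ± 0.73 in the 6 B-high libraries and 3.09 ± 0.75 in the other 6 (SD, n = 6 each). The 5 pairs with an r of 0.8 or more in size had the same sign within each set. Arntl and Cry1 had an r of 0.83 in the 6 highest (exact permutation p = 0.0167) and 0.68 in the other 6 (exact permutation p = 0.146). For Arntl and Dbp, r was -0.93 in the 6 highest (exact permutation p = 0.0222) and -0.41 in the other 6 (exact permutation p = 0.382). Arntl and Nr1d2 differed in sign between the sets, with -0.81 in the 6 highest and 0.30 in the other 6. With the B cell level removed from both genes, the r of Arntl was -0.32 with Nr1d1 (permutation p = 0.309), -0.49 with Dbp (permutation p = 0.103), -0.63 with Per3 (permutation p = 0.0285) and 0.60 with Cry1 (permutation p = 0.0394). That of Nr1d1 and Dbp was then 0.81 (permutation p = 0.00099). The part of B cell content in the pooled correlations was not tested beyond these values.

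Of the clock genes, Nr1d1 had the largest r with the adipocyte genes of the pad. Each clock gene was set against the levels of 11 lists. The B cell list was left out because the library sets rest on it, and the T cell list was left out with it. Of the 110 relations, 11 had an adjusted p under 0.05 for r, which were the 11 with an r of at least 0.76 in size. That is 10% of the clock gene relations, against 9.14% of the relations of all tested genes with these lists, so the count was near the background. Nr1d1 and the adipocyte level (the mean log2 CPM of Adipoq, Plin1 and 6 other fat cell genes) had an r of 0.94 and a rho of 0.92, with an adjusted p of 0.0011 for r and 0.0022 for rho. The permutation p was 2e-05 for this r and 6e-05 for rho. The r was 0.94 without the 2 farthest libraries, 0.83 in the 6 B-high libraries (exact permutation p = 0.0319) and 0.94 in the other 6 (exact permutation p = 0.00694). Of the 10 clock genes 1 had an r of 0.8 or more in size with the adipocyte level, against 17% of all tested genes, so such an r was common in these libraries. All 8 adipocyte genes were higher at 5 mg/kg and 0 passed the test, with summed levels of 2065 to 3330 CPM at 5 mg/kg and 994 to 3862 CPM at 1 mg/kg and no marker at 0.

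Dbp was likewise higher, and Arntl and Cry1 lower, in the libraries with more adipocyte RNA. The r of Dbp was 0.76 (permutation p = 0.00419, adjusted p = 0.0432) and its rho 0.79 (permutation p = 0.00327, adjusted p = 0.0300), with 0.75 without the 2 farthest libraries. For Arntl r was -0.76 (permutation p = 0.00432, adjusted p = 0.0432) and rho -0.89 (permutation p = 0.00031, adjusted p = 0.00682), with -0.69 without the 2 farthest libraries. For Cry1 r was -0.79 (permutation p = 0.00247, adjusted p = 0.0432) and rho -0.87 (permutation p = 0.00061, adjusted p = 0.00839), with -0.79 without the 2 farthest libraries. Within the B cell sets these r kept their signs, at 0.55 and 0.79 for Dbp, -0.58 and -0.57 for Arntl, and -0.80 and -0.42 for Cry1 (B-high libraries, then the other 6).

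With the adipocyte level removed from both genes, the r of Arntl and Dbp was -0.29 (permutation p = 0.358) and that of Arntl and Nr1d1 was -0.23 (permutation p = 0.477). Other pairs kept more of theirs, with -0.75 for Arntl and Per3 (permutation p = 0.00379), 0.66 for Arntl and Cry1 (permutation p = 0.0146), 0.60 for Nr1d1 and Dbp (permutation p = 0.0362) and 0.65 for Per1 and Per2 (permutation p = 0.0225). The adipocyte level was itself tied to the B cell level. It lay between 6.59 and 7.79 in the B-high libraries. In the other 6 it lay between 7.88 and 8.57, except for 7.40 in replicate 3 at 1 mg/kg. Removing either level therefore also removes part of the other, and their parts were not separated. Nr1d1 also moved with the endothelial level, with an r of 0.91 (permutation p = 2e-05, adjusted p = 0.0011) and a rho of 0.87 (permutation p = 0.00048, adjusted p = 0.00754). That r was 0.87 without the 2 farthest libraries, 0.95 among the B-high libraries and 0.54 among the other 6. Cry1 had an r of -0.83 with the endothelial level (permutation p = 0.00055, adjusted p = 0.0202; rho of -0.87) and -0.81 without the 2 farthest libraries. For Arntl and that level r was -0.77 (permutation p = 0.00405, adjusted p = 0.0432; rho of -0.95), with -0.84 without the 2 farthest libraries. For Clock r was 0.76 (permutation p = 0.00411, adjusted p = 0.0432; rho of 0.83), with 0.56 without the 2 farthest libraries, 0.47 among the B-high libraries and 0.06 among the other 6. Thus 2 of the 10 clock genes, Nr1d1 and Cry1, had an r of 0.8 or more in size with the endothelial level, against 17.3% of all tested genes. The 6 endothelial markers did not all run together. Pecam1 had an r of 0.60 with Arntl, while Cdh5, Tie1 and Emcn each had -0.82, Tek -0.61 and Kdr -0.33. The level is a mean over these markers and need not stand for each of them. With the fibroblast level, Nr1d1 had an r of 0.80 (permutation p = 0.00118, adjusted p = 0.0325; rho of 0.83) and Cry1 one of -0.78 (permutation p = 0.00218, adjusted p = 0.0432; rho of -0.90), with 0.71 and -0.85 without the 2 farthest libraries. Nr1d2 was the only clock gene to pass with the skeletal muscle level, with an r of 0.78 (permutation p = 0.00299, adjusted p = 0.0432), a rho of 0.77 (permutation p = 0.00502, adjusted p = 0.0394), and 0.72 without the 2 farthest libraries. The part of tissue makeup in the clock gene levels was not tested beyond these values.

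Per1 was the clock gene nearest to the glucocorticoid response list (Fkbp5, Sgk1, Tsc22d3 and 7 others). Its r with the list's level was 0.72 (permutation p = 0.00802, adjusted p = 0.0677 over the 110 relations) and rho was 0.67 (permutation p = 0.0204, adjusted p = 0.102), so the relation did not pass adjustment. It was 0.64 without the 2 farthest libraries, 0.92 in the 6 B-high libraries (exact permutation p = 0.00556) and 0.57 in the other 6 (exact permutation p = 0.247), 0.43 within 5 mg/kg (exact permutation p = 0.414) and 0.86 within 1 mg/kg (exact permutation p = 0.0222), and without replicate 1 at 1 mg/kg it was 0.59 (permutation p = 0.0569). None of the 10 clock genes reached an r of 0.8 with this list, against 0.161% of all tested genes. Among single genes of the list, r with Per1 was 0.82 for Hif3a, 0.75 for Sgk1, 0.70 for Errfi1 and 0.69 for Tsc22d3, given here as a description. It was lower for the other 6, at 0.50 for Fkbp5, 0.46 for Zbtb16, 0.32 for Klf9, 0.17 for Mt2, 0.03 for Pdk4 and 0.02 for Mt1. Hif3a, with the largest of these r, had a low level, 0.266 to 1.24 CPM at 5 mg/kg and 0.303 to 1.25 CPM at 1 mg/kg. Per1 had an r of 0.28 with the immediate early list (permutation p = 0.381, adjusted p = 0.590).

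**Figure D5:**
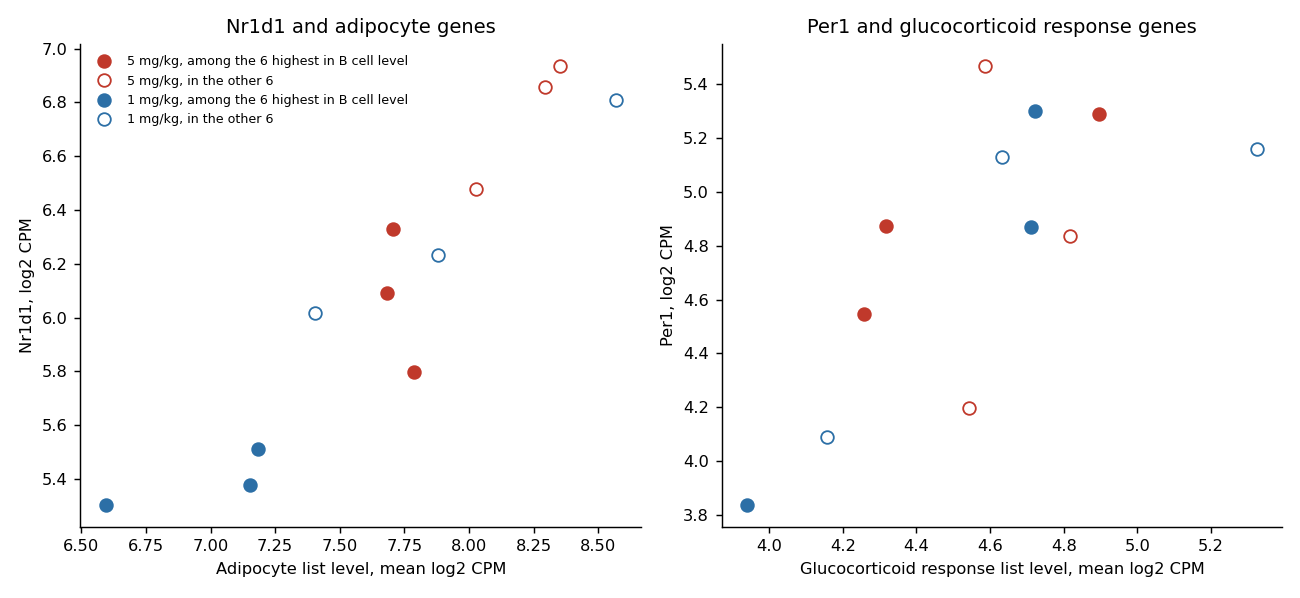
Left, Nr1d1 against the adipocyte level; right, Per1 against the glucocorticoid response level, all in log2 CPM, with 1 point per library, red for 5 mg/kg and blue for 1 mg/kg, filled for the 6 libraries highest in B cell level. Nr1d1 climbs with the adipocyte level across both colours (r of 0.94), and Per1 scatters more widely around its relation (r of 0.72).

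The genes whose pattern over the 12 libraries was most like that of Dbp were ranked among 12953 genes with a mean of at least 1 CPM, as a description. The 6 highest were Kifc2, a kinesin (r of 0.95), Emc9, a subunit of the membrane protein insertion complex of the endoplasmic reticulum (0.94), Tcf15, a basic helix-loop-helix transcription factor (0.94), Dmtn, an actin-bundling protein (0.92), Tef (0.92) and Car11, a carbonic anhydrase-related protein (0.91). Tef, a relative of Dbp in the PAR bZIP family, was thus 5 of 12953 in rank, and Hlf, of the same family, had an r of 0.82. Within the B cell sets the lowest r among these 6 genes was 0.84, but they were picked for a high r over these same libraries. The 6 lowest were Rlim, a ubiquitin ligase (-0.95), Ubfd1 (-0.95), the zinc finger gene Zfx (-0.94), Atg2b, a lipid transfer protein of autophagy (-0.93), and the zinc finger genes Zfp322a (-0.92) and Zfp626 (-0.91).

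The genes most like Arntl were Fgfr1op, a centrosomal protein gene (r of 0.90), Nceh1, a cholesterol ester hydrolase (0.90), Tent5c and Tent4b, both nucleotidyltransferases that extend RNA tails (0.89 and 0.88), Cdkl1, a kinase (0.89), and Tenm3, a teneurin (0.88). Cry1 stood at rank 18 of 12953 with Arntl. At the other end, Per3 stood at rank 12878 (r of -0.84) and Cry2 at rank 12872 (r of -0.84). With Dbp, the other genes of the clock that came closest after Tef were Nr1d1 at rank 66 (r of 0.85), the D-box factor Hlf at rank 144, Nr1d2 at rank 357 and Ciart at rank 394 (r of 0.78). All of these ranks share the 12 libraries and their scaling, so they are not independent of each other.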

How the data were processed

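For 12 libraries the authors deposited raw counts of reads per gene. The submitters' processing notes name STAR, HTSeq 0.6.1 and the build mm10. Not given in the sources used here are the annotation, the strand setting and the version of STAR. Per the labels' protocols, RNA came from a mirVana isolation and libraries from the TruSeq v2 kit. The files list 55487 gene IDs, of which 55227 matched a symbol through GENCODE vM21 (GRCm38, also called mm10) or a name table. The 5 tally lines of reads given to no gene, 16.7% to 35.7% of all reads tallied, were left out. Reads carry no molecular identifiers, so depth stands for counting error only.

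The folic acid groups were compared with edgeR 4.0.16 in R 4.3.3 (filterByExpr, TMM, quasi-likelihood F-test with robust dispersion, no covariates), with Benjamini-Hochberg adjustment over 18647 genes and a threshold of 0.05. Log2 fold changes are 5 mg/kg over 1 mg/kg, and standard errors were derived from the F statistic. Correlations used log2 CPM (prior count 2), with 100000 permutations over 12 libraries or all 720 orders of 6 (Python 3.11.15, scipy 1.17.1); the smallest exact p for 6 libraries is 0.00139. Pairs with an r of 0.8 or more in size were counted as strong. The scripts were tested on simulated data.

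Clock genes and lists were chosen with earlier results of these data known. All 10 clock genes are named; 12 other genes were named whatever their values, beside any gene of the other clock and response lists with an unadjusted p under 0.05, and the likeness lists give 6 genes each. A gene that this rule names is not reported here. Alternatives were DESeq2 1.42.0, limma-voom (limma 3.58.1) with and without quality weights, other scalings, filters, prior counts and covariates, and leaving out each library. Splits by B cell level, moving replicate 3 at 1 mg/kg between them, values within each group and the alternatives for list levels were added after seeing the data. Replicate numbers follow the order of records and pair no samples.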

Additional observations from a re-analysis of the deposited data

How the results depend on the processing

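No gene passed the adjusted threshold in any of the 11 other settings or without any of the 12 libraries; 776 of 48171 genes had an unadjusted p under 0.05 by DESeq2 and 360 by limma-voom, and 1445 without replicate 4 at 1 mg/kg. No clock gene had an adjusted p under 0.05 in any of them, and Per2, Per3, Cry1, Nr1d1 and Dbp kept the sign of their log2 fold change throughout. That of Arntl was 0.14 with the adipocyte level as covariate. Clock lay between -0.11 and 0.012 without single libraries, Npas2 between -0.27 and 0.14, Per1 between -0.036 and 0.23 and Nr1d2 between -0.020 and 0.15. Npas2 was also at 0.045 by limma-voom and 0.14 with quality weights. Nr1d2 was at -0.054 when scaled by library size alone, -0.16 with the adipocyte level and -0.0047 with the brown fat level as covariate. Scaling by library size alone put the median log2 fold change of all genes at -0.16. The r of Arntl and Dbp was -0.50 under that scaling, -0.49 with the B cell level removed, -0.29 with the adipocyte level removed, -0.41 in the 6 libraries lower in B cell level and -0.32 within 5 mg/kg, none past 0.05, and -0.79 to -0.58 without single libraries. The count of clock gene pairs with an r of 0.8 or more in size, 5, was 3 when scaled by library size alone, 1 with the B cell, 0 with the adipocyte and 9 with the brown fat level removed. It was 8 within the 6 libraries highest in B cell level and 5 within the other 6, 9 within 5 mg/kg and 10 within 1 mg/kg, and 4 to 8 without single libraries, with 8 without replicate 3 at 1 mg/kg. The share of all gene pairs past 0.8 was computed over the 12 libraries alone, 8.93%. Counts in the other settings therefore have no background of their own, and an r of 0.8 is easier to reach with 6 libraries than with 12. The cause of these shifts was not tested. No paired analysis was possible because the labels give no replicate numbers that groups share. Npas2, with at most 113 reads in a library, is the clock gene most limited by depth.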
